A study of Mus musculus with 6 samples.

Results

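Microglia carrying mutant tau but no mouse Apoe were compared with and without Trem2. The material was nuclei of the hippocampus that a sort had enriched for the myeloid transcription factor PU.1, with RNA read per nucleus in droplets. The library labelled P301S/EKO/TREM2- (tau P301S, Apoe knockout, Trem2 deleted) was set against the library labelled P301S/EKO/TREM2+ (the same tau and Apoe background with Trem2 present). Each was 1 library pooled from 3 mice aged 9.5 months, so both sides of the comparison carried tau and lacked Apoe. The promoter that drives the tau transgene and the exons removed from Trem2 are not given in the sources used here. A further 4 libraries carried human APOE4, either with tau (the P301S/E4 pair, TREM2- and TREM2+) or without it (the E4 pair), and served for a test of the difference between backgrounds, for side-by-side values and for neuron-marker nuclei as a background. Nuclei were kept with at least 200 detected genes, at most 5% of unique molecular identifiers (UMIs, 1 per captured RNA molecule) from mitochondrial genes, and fewer than 3 UMIs over the border-associated macrophage genes F13a1, Mrc1, Cd163, Cd209f and Cbr2. This gave 4982 nuclei from P301S/EKO/TREM2- and 3530 from P301S/EKO/TREM2+, 8512 of the 30879 nuclei that passed in the series and of the 33335 deposited.

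TREM2 is a receptor of microglia that binds lipids, lipoproteins and cell debris and signals through the adaptor TYROBP (DAP12) and the kinase SYK. In mouse models of amyloid and tau pathology, microglia leave their homeostatic state for a disease-associated (DAM) state in steps. An early step raises genes such as B2m and Ctsb, and a later step, which needs TREM2 in amyloid models, raises genes such as Lpl, Spp1 and Itgax. APOE is both a ligand of TREM2 and a lipid carrier that activated microglia make themselves.

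The P301S/EKO/TREM2- library was shallower than its partner. Its used nuclei had a median of 568 UMIs and 398.5 genes, against 804 UMIs and 558.5 genes in P301S/EKO/TREM2+, and the lowest deposited nucleus had 224 UMIs there, against 500 UMIs in P301S/EKO/TREM2+. All main values therefore come from nuclei with at least 500 UMIs, each drawn at random without replacement down to 500 UMIs. This kept 3169 nuclei of P301S/EKO/TREM2- with 1584500 UMIs and 3530 nuclei of P301S/EKO/TREM2+ with 1765000 UMIs. It left out 1813 nuclei, 36.4%, of P301S/EKO/TREM2- and none of P301S/EKO/TREM2+. Levels are given in CPM, the equal-depth UMIs of a gene scaled to the same total in each library, and a log2 ratio is P301S/EKO/TREM2- over P301S/EKO/TREM2+. Where no background is named, TREM2- and TREM2+ stand for these libraries of the P301S/EKO pair. With 1 library a side there was no test of this pair. The 95% intervals given are exact for the counts and cover counting error only, so they do not include variation between mice or between libraries. The 2 libraries shared 4 nucleus barcodes.

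Markers of microglia dominated both libraries. The 15 microglia markers summed to 19654 CPM in P301S/EKO/TREM2-, against 20766 CPM in P301S/EKO/TREM2+, and 97.9% of TREM2- nuclei and 98.7% of TREM2+ nuclei had at least 3 UMIs over them. Neuron markers summed to 322 CPM in P301S/EKO/TREM2-, against 189 CPM in P301S/EKO/TREM2+ (log2 ratio 0.77). Astrocyte markers summed to 677 CPM in TREM2- against 473 CPM in TREM2+ (0.52), and the border-associated macrophage markers left after the filter to 313 CPM in TREM2- against 237 CPM in TREM2+ (0.40). Oligodendrocyte markers were at 290 CPM in P301S/EKO/TREM2-, against 259 CPM in P301S/EKO/TREM2+. T or NK cell markers were near 0 in both, at 1.26 CPM in TREM2- and 2.27 CPM in TREM2+. All 13 mitochondrial transcripts were lower in P301S/EKO/TREM2-, with a median log2 ratio of -0.40, and the nuclear RNA Malat1 made up 17.7% of UMIs there, against 15.3% in P301S/EKO/TREM2+. The part of these differences in the results below was not tested. Without nuclei that hold 3 or more UMIs of a non-myeloid class, which does not remove free RNA, the list medians were -0.36 for later DAM, 0.098 for homeostatic, -0.23 for interferon and -0.44 for MHC class I genes.

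**Figure D1:**
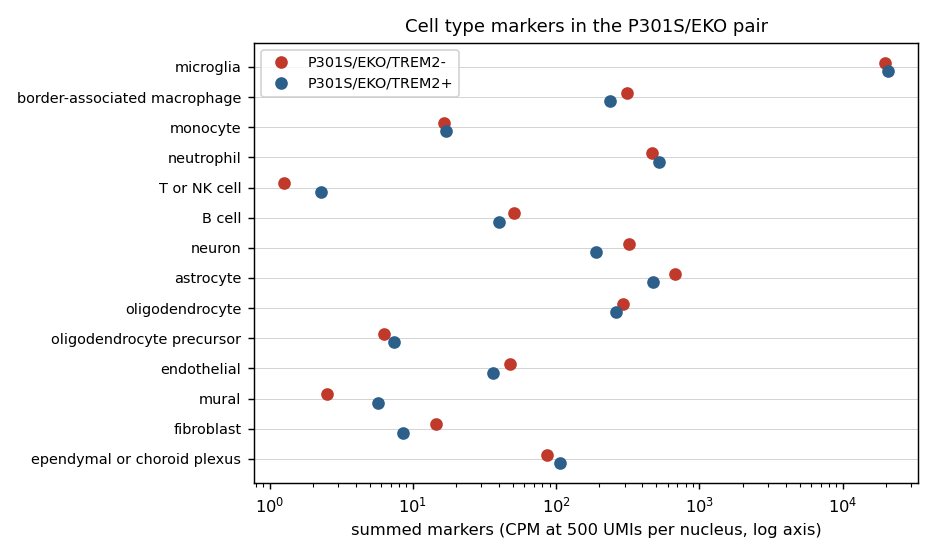
Summed CPM at 500 UMIs per nucleus (log axis) of the markers of 14 cell classes in the TREM2- and TREM2+ libraries of the P301S/EKO pair, 1 point per library. Microglia markers stand at 19654 CPM in TREM2- and 20766 CPM in TREM2+, far above every other class, and the neuron and astrocyte points of P301S/EKO/TREM2- lie to the right of those of P301S/EKO/TREM2+.

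Trem2 (ENSMUSG00000023992, GRCm38 chr17:48346401-48354147, plus strand) had 492 CPM in P301S/EKO/TREM2- (780 UMIs in 692 nuclei), against 1051 CPM in P301S/EKO/TREM2+ (1855 UMIs in 1403 nuclei). The log2 ratio was -1.09 (-1.22 to -0.97). The direction fits the labels, and transcripts of the locus were still counted in the TREM2- library. Reads from parts of the gene outside a deletion would still be counted, so the remaining UMIs say nothing of how much receptor was left. Apoe had 7.57 CPM (12 UMIs) in P301S/EKO/TREM2-, against 9.63 CPM (17 UMIs) in P301S/EKO/TREM2+. In the E4 libraries it was between 111 and 1180 CPM, so both EKO libraries matched their label.

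Among genes of the TREM2 signalling path the kinase gene Fgr was lower in P301S/EKO/TREM2- by the largest ratio of the list. Of 7968 genes measured with at least 50 equal-depth UMIs over the pair, 73 (0.916%) were 2-fold or more lower and 41 (0.515%) were 2-fold or more higher. The log2 ratio was below 0 for 4402 of them (55.2%), with a median of -0.037. Of the 21 signalling members measured, 16 had a log2 ratio below 0, 2 were 2-fold lower and 1 was 2-fold higher, with a median of -0.16. The list holds Trem2 itself, which is 1 of the 2 lower and of the 16 below 0 through the genotype. Without thinning the median was -0.087, beside -0.057 for all genes. Fgr, a Src-family kinase, had 33.4 CPM (53 UMIs) in P301S/EKO/TREM2-, against 128 CPM (226 UMIs) in P301S/EKO/TREM2+, a log2 ratio of -1.94 (-2.40 to -1.50). Vav1, a signalling adaptor of immune receptors, had a log2 ratio of -0.72 (-1.11 to -0.33), and Lat2, a membrane adaptor downstream of the kinases, of -0.49 (-0.80 to -0.19). The adaptor and core kinases were closer to the background: Tyrobp had 425 CPM in TREM2- and 469 CPM in TREM2+ (-0.14, -0.29 to 0.01), and Syk had 311 UMIs in TREM2- and 380 UMIs in TREM2+ (-0.13, -0.35 to 0.09). Dok3, an inhibitory adaptor of immune receptor signalling, went the other way with 43.5 CPM in P301S/EKO/TREM2-, against 20.4 CPM in P301S/EKO/TREM2+ (1.09, 0.49 to 1.72). Inpp5d, the lipid phosphatase SHIP1 that opposes TREM2 signalling, had a log2 ratio of 0.11 (0.01 to 0.20).

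Some genes that lie near Trem2 on chromosome 17 also differed. Treml2, a TREM-family receptor gene, had 15 UMIs in P301S/EKO/TREM2- and 54 UMIs in P301S/EKO/TREM2+ (-1.69, -2.62 to -0.85). Treml1 had 14 UMIs in TREM2- against 1 UMI in TREM2+, too few for the gene minimum. Its log2 ratio was also above 0 in P301S/E4 (1.87) and in E4 (1.44). Among genes within 1 Mb of Trem2 below that minimum, Mdfi had 6 UMIs in TREM2- against 30 UMIs in TREM2+ and AI661453 had 31 UMIs in TREM2- against 8 UMIs in TREM2+. Treml2 was not lower in every pair, at 0.10 (-0.41 to 0.61) in P301S/E4 and -2.37 (-4.40 to -0.75) in E4. In both other pairs Mdfi was likewise lower and AI661453 likewise higher in the TREM2- library, with log2 ratios of -2.35 and -2.70 for Mdfi and of 2.77 and 2.66 for AI661453. These low-count genes were named after their values were seen. Of the neighbours above the minimum, Mrps10 was higher in the TREM2- library of the P301S/EKO, P301S/E4 and E4 pairs (0.42, 0.51 and 0.39). Nfya was lower in each of these pairs (-0.27, -0.41 and -0.43). The intervals of both genes left out 0 in each pair, for Nfya in P301S/EKO only just. Ccnd3, Med20, Tfeb, Oard1 and B430306N03Rik, like Treml2, did not keep 1 sign over the pairs.

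The later DAM genes were lower in P301S/EKO/TREM2-. Of 26 genes on the list, 21 were measured, with a median of -0.39, or -0.21 without thinning. Of these, 18 had a log2 ratio below 0, against 55.2% of all genes, and 5 were 2-fold lower, against 0.916%. The interval lay below 0 for 13 members, 61.9% of those measured, against 9.9% of all genes, and above 0 for none, against 6.07% of all genes. The genes furthest down encode secreted or surface proteins of activated microglia. Spp1, which encodes osteopontin, had 7.57 CPM (12 UMIs) in P301S/EKO/TREM2-, against 27.2 CPM (48 UMIs) in P301S/EKO/TREM2+, a log2 ratio of -1.84 (-2.89 to -0.91). Axl, a receptor kinase for apoptotic cells, had 26.5 CPM in TREM2- against 74.8 CPM in TREM2+ (-1.50, -2.03 to -0.99). Lpl, which encodes lipoprotein lipase, had 41.7 CPM in TREM2- against 105 CPM in TREM2+ (-1.34, -1.77 to -0.93). The levels of these genes rest on few nuclei: Lpl was seen in 56 nuclei of P301S/EKO/TREM2- and in 144 nuclei of P301S/EKO/TREM2+, and Axl in 41 of TREM2- and 124 of TREM2+.

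Itgax, which encodes the integrin CD11c, had 18.3 CPM in P301S/EKO/TREM2-, against 40.8 CPM in P301S/EKO/TREM2+ (-1.16, -1.83 to -0.52). Lilrb4a, an inhibitory receptor gene, had 57 UMIs in TREM2- against 130 UMIs in TREM2+ (-1.03, -1.51 to -0.57). Cst7, which encodes the protease inhibitor cystatin F, had 38 UMIs in TREM2- against 84 UMIs in TREM2+ (-0.99, -1.58 to -0.42). The growth factor gene Csf1 had a log2 ratio of -0.75 (-1.16 to -0.36) and Cd52 of -0.53 (-0.88 to -0.19). Abundant members moved less: Ctsl, a lysosomal protease gene with 837 UMIs in TREM2- and 1233 UMIs in TREM2+, had a log2 ratio of -0.40, and the tetraspanin gene Cd9, with 1079 UMIs in TREM2- and 1473 UMIs in TREM2+, of -0.29. The 3 members above 0 were Gusb (0.09), Cd68 (0.10) and Nceh1 (0.16), a set that encodes lysosomal and lipid-handling proteins, and the interval of each included 0.

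Members below the gene minimum were Gpnmb with 1 UMI in P301S/EKO/TREM2- and 17 UMIs in P301S/EKO/TREM2+, Igf1 with 3 in TREM2- against 20 in TREM2+, Lgals3 with 14 in TREM2- against 13 in TREM2+, and Baiap2l2 with 21 in TREM2- against 28 in TREM2+. Clec7a was not analysed here. The Gpnmb log2 ratio was -3.93 with an interval of -9.32 to -1.26. In P301S/E4 nuclei, with APOE4 in place of no Apoe, the same gene had 873 UMIs in TREM2- and 581 UMIs in TREM2+.

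The earlier DAM genes shared the direction at a smaller size. Of 8 measured, 6 had a log2 ratio below 0, against 55.2% of all genes, none was 2-fold lower and the median was -0.28. Lyz2, which encodes lysozyme, had 308 UMIs in P301S/EKO/TREM2- and 485 UMIs in P301S/EKO/TREM2+ (-0.50, -0.71 to -0.29). Timp2, an inhibitor of matrix proteases, had 244 UMIs in TREM2- against 384 UMIs in TREM2+ (-0.50, -0.74 to -0.26). Ctsb, the cathepsin B gene, had a log2 ratio of -0.20 (-0.29 to -0.11). The exception with an interval above 0 was Fth1, the ferritin heavy chain gene, with 803 UMIs in TREM2- against 752 UMIs in TREM2+ (0.25, 0.11 to 0.40).

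Homeostatic microglia genes were slightly higher in P301S/EKO/TREM2- as a list, and their best-known members disagreed. Of 27 measured, 20 had a log2 ratio above 0, against 44.8% of all genes, and 2 were 2-fold higher, with a median of 0.09. P2ry12, the receptor for ADP that guides microglial processes, had 1309 UMIs in P301S/EKO/TREM2- and 1187 UMIs in P301S/EKO/TREM2+ (0.30, 0.18 to 0.41). P2ry6, a receptor for UDP, had 1274 UMIs in TREM2- against 1083 UMIs in TREM2+ (0.39, 0.27 to 0.51), and the Fc receptor-like gene Fcrls had a log2 ratio of 0.35 (0.22 to 0.48). The members furthest up were low in level: Upk1b had 30.9 CPM in TREM2- against 11.9 CPM in TREM2+ (1.38, 0.61 to 2.19), the crystallin gene Crybb1 had 49.9 CPM in TREM2- against 21.5 CPM in TREM2+ (1.21, 0.64 to 1.81), and the fructose transporter gene Slc2a5 had 119 UMIs in TREM2- against 87 UMIs in TREM2+ (0.61, 0.20 to 1.02). Tmem119 had 496 UMIs in TREM2- and 538 UMIs in TREM2+, a log2 ratio of 0.04 (-0.14 to 0.22). Cx3cr1, the fractalkine receptor gene, was on the other side at -0.20 (-0.27 to -0.13), as were the TGF-beta receptor gene Tgfbr1 at -0.22 (-0.30 to -0.15) and the integrin gene Itgb5 at -0.25 (-0.43 to -0.08). In the nuclei of at least 1000 UMIs thinned to that depth, 316 of P301S/EKO/TREM2- and 980 of P301S/EKO/TREM2+, the median of the list was -0.038.

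**Figure D2:**
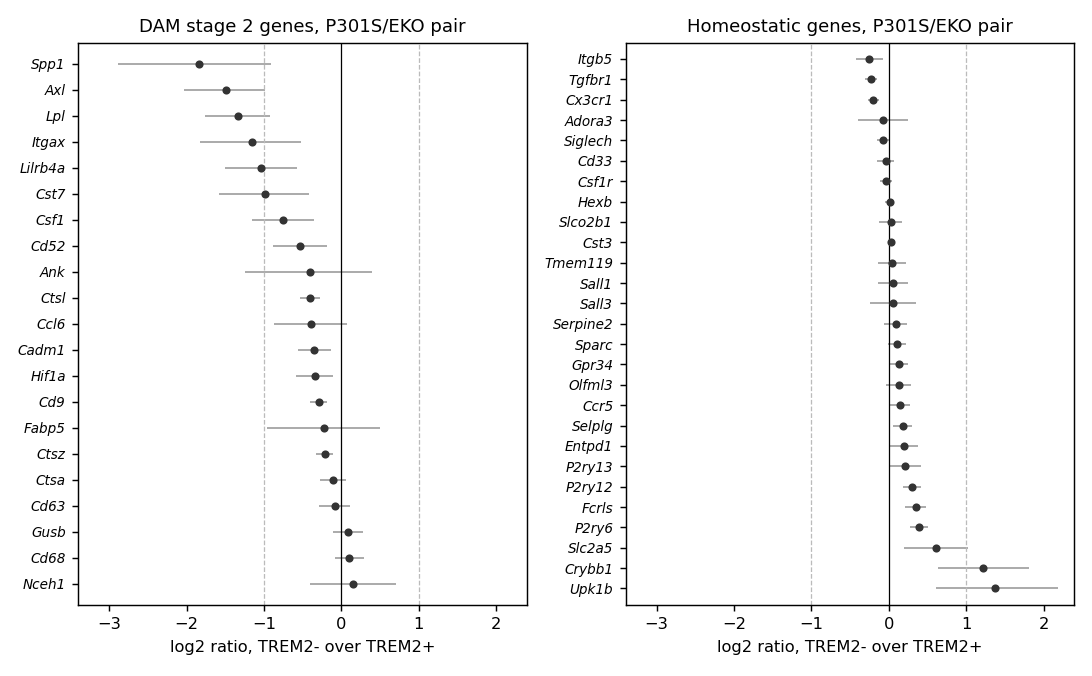
Log2 ratios of the measured DAM stage 2 genes (left) and homeostatic genes (right), P301S/EKO/TREM2- over P301S/EKO/TREM2+ at 500 UMIs per nucleus, with 95% intervals for counting error as bars and dashed lines at 2-fold. Spp1, at -1.84, to Lilrb4a, at -1.03, lie beyond the lower line on the left, and only Crybb1 (1.21) and Upk1b (1.38) lie beyond the upper line on the right.

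Interferon response genes were lower in P301S/EKO/TREM2- for most members. The 8 members above 0 were the antiviral genes Ifit1 (0.47), Ifit2 (0.12), Ifit3 (0.13) and Ifi44 (0.11), the GTPase genes Gbp7 (0.58), Iigp1 (0.10) and Igtp (0.04), and the chemokine gene Cxcl10 (0.54). These genes are switched on by type I interferon through its receptor on the cell surface. Of 50 on the list, 41 were measured, with a median of -0.24. Of these, 33 (80.5%) had a log2 ratio below 0, against 55.2% of all genes, and 2 were 2-fold lower, against 0.916%. The interval lay below 0 for 18 members, against 9.9% of all genes, and above 0 for 2, against 6.07%. Oas1a, an antiviral synthetase gene, had 13.9 CPM (22 UMIs) in P301S/EKO/TREM2-, against 32.3 CPM (57 UMIs) in P301S/EKO/TREM2+ (-1.22, -2.00 to -0.49). Rnf213, a large ubiquitin ligase gene, had 67.5 CPM (107 UMIs) in TREM2- against 141 CPM (249 UMIs) in TREM2+, a log2 ratio of -1.06 (-1.40 to -0.73), but this value depended on the random draw and on the nuclei used: it was -0.81 with another draw and -0.64 without the macrophage filter. Ifi207, of the Ifi200 family of nucleic acid sensors, had 39.1 CPM in TREM2- against 70.8 CPM in TREM2+ (-0.86, -1.32 to -0.41). The transcription factor gene Stat2 had 177 UMIs in TREM2- against 257 UMIs in TREM2+ (-0.38, -0.67 to -0.10).

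Several well-known interferon-stimulated genes had intervals that included 0. Ifit3 had 62 UMIs in P301S/EKO/TREM2- and 63 UMIs in P301S/EKO/TREM2+ (0.13, -0.40 to 0.66), Isg15 had 33 in TREM2- and 42 in TREM2+ (-0.19, -0.90 to 0.50), and Mx1 had 130 in TREM2- and 151 in TREM2+ (-0.06, -0.41 to 0.29). Gbp7, an interferon-inducible GTPase gene, had 122 UMIs in TREM2- against 91 UMIs in TREM2+ (0.58, 0.18 to 0.99), and the chemokine gene Cxcl10 had 188 UMIs in TREM2- against 144 UMIs in TREM2+ (0.54, 0.22 to 0.86). Among 18 measured receptors and sensors of the pathway the median was -0.09 and none was 2-fold different. Ifnar2, a subunit of the type I interferon receptor, had 208 UMIs in TREM2- against 361 UMIs in TREM2+ (-0.64, -0.89 to -0.39), while Ifnar1, the other subunit, had 225 in TREM2- against 261 in TREM2+ (-0.06, -0.32 to 0.20). Many interferon genes belong to families of similar copies (Oas, Ifit, Ifi200, Slfn, Trim30), so reads could be split between members.

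The response element of interferon genes was present among both the lower and the higher members of the list. The 250 bases before the start are shown for the lowest pair and the highest pair of the list, from RefSeq on GRCm38.p6, with the core of the interferon-stimulated response element in capitals. The motif searched, on either strand, was GAAA, any 2 bases and GAAA again. The letters read in the direction of the gene, at chr5:120907526-120907775 (minus strand) for Oas1a, chr11:119389849-119390098 (plus) for Rnf213, chr5:92348890-92349139 (minus) for Cxcl10 and chr3:142530086-142530335 (plus) for Gbp7.
Oas1a: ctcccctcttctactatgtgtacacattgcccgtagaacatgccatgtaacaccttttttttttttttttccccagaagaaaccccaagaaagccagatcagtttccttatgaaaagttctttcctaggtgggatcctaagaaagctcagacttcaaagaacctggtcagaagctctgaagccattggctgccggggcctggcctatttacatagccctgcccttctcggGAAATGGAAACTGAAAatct
Rnf213: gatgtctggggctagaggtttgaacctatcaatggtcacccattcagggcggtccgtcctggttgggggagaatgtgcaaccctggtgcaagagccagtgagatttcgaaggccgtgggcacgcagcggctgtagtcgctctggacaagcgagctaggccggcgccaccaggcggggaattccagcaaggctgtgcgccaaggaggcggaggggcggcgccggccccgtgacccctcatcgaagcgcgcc
Cxcl10: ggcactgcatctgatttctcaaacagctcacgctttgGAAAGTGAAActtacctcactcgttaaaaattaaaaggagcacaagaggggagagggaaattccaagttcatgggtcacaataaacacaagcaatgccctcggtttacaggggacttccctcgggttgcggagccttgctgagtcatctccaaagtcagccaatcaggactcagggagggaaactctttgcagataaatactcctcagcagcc
Gbp7: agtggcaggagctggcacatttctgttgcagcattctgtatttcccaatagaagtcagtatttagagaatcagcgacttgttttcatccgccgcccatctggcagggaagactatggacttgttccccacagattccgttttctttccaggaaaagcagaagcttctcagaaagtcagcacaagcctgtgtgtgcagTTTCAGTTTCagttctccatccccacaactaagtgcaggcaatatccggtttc
Oas1a holds 2 overlapping matches that begin close to the start, Cxcl10 and Gbp7 hold 1 each, and the Rnf213 window holds none. The GENCODE start of Rnf213, chr11:119393100, lies downstream of this RefSeq window, and the bases just before it were not searched. Of 30 measured interferon genes with a promoter entry, 16 (53.3%) held a match, against 219 of all 6237 measured genes with an entry (3.51%). Counted by promoter entry over all genes, measured or not, it was 978 of 32851 (2.98%). The median log2 ratio was -0.18 for the 16 with a match and -0.20 for the 14 without. A match is a run of letters and no evidence of binding.

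MHC class I genes, which present peptides to CD8 T cells and respond to interferon, were lower in P301S/EKO/TREM2-. All 16 genes on the list were measured, and 13 had a log2 ratio below 0, against 55.2% of all genes. None was 2-fold lower and the median was -0.40. The interval lay below 0 for 9 members, against 9.9% of all genes, and above 0 for none, against 6.07%. H2-K1 had 403 CPM in P301S/EKO/TREM2-, against 619 CPM in P301S/EKO/TREM2+ (-0.62, -0.76 to -0.48), and H2-D1 had 517 CPM in TREM2- against 758 CPM in TREM2+ (-0.55, -0.68 to -0.43). B2m, the shared light chain, had 626 UMIs in TREM2- against 900 UMIs in TREM2+ (-0.37, -0.52 to -0.22). Nlrc5, the transactivator of the class I genes, had 34 UMIs in TREM2- against 75 UMIs in TREM2+ (-0.99, -1.62 to -0.38). The immunoproteasome gene Psmb9, the peptide-loading gene Tapbp and the trimming peptidase gene Erap1 lay above 0, at 0.09, 0.01 and 0.10, and the interval of each included 0. The H2 genes are similar in sequence, so counts may be shared among copies.

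MHC class II genes were low in both libraries and lower in P301S/EKO/TREM2- in all 8 measured, with a median of -0.34. The interval lay below 0 for 2 of them, against 9.9% of all genes, and without thinning the median was -0.17. Cd74, the invariant chain, had 124 UMIs in P301S/EKO/TREM2- and 168 UMIs in P301S/EKO/TREM2+ (-0.28, -0.63 to 0.06). H2-Eb1 had 16 UMIs in TREM2- against 35 UMIs in TREM2+ (-0.97, -1.93 to -0.08), and its log2 ratio was -0.34 without thinning.

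**Figure D3:**
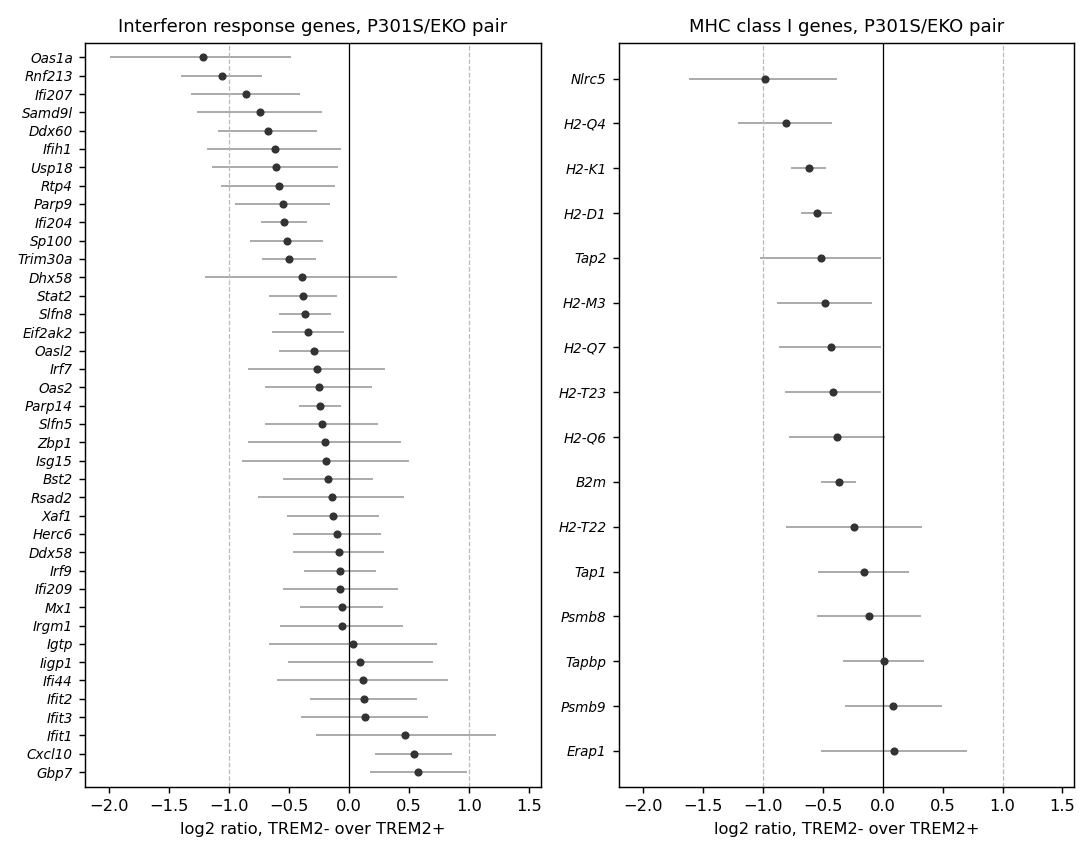
Log2 ratios of 40 of the 41 measured interferon response genes (left) and MHC class I genes (right), P301S/EKO/TREM2- over P301S/EKO/TREM2+ at 500 UMIs per nucleus, with 95% intervals for counting error as bars and dashed lines at 2-fold. Most points lie left of 0, Oas1a (-1.22) and Rnf213 (-1.06) beyond 2-fold, and Cxcl10 (0.54) and Gbp7 (0.58) are the only members whose interval lies above 0.

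Inflammatory and lysosomal genes were modestly lower in P301S/EKO/TREM2-. The NF-kB and cytokine list had 18 measured members, 13 below 0, against 55.2% of all genes, and a median of -0.21. Cd83, a surface protein of activated cells, had 92 UMIs in P301S/EKO/TREM2- and 169 UMIs in P301S/EKO/TREM2+ (-0.72, -1.10 to -0.35), and Tlr2, a receptor for microbial lipoproteins, had 85 in TREM2- against 149 in TREM2+ (-0.65, -1.06 to -0.26). The chemokine genes Ccl3 and Ccl4 were at -0.20 and -0.19 with intervals that included 0. The lysosome list had 27 measured members, 20 below 0, against the same 55.2%, and a median of -0.20. Its lowest was Mitf, a transcription factor of lysosomal genes, with 213 UMIs in TREM2- against 336 UMIs in TREM2+ (-0.50, -0.76 to -0.25). Cathepsin S (Ctss), with 3351 UMIs in TREM2- and 4347 UMIs in TREM2+, had a log2 ratio of -0.22 (-0.29 to -0.15), and progranulin (Grn), with 871 in TREM2- and 1127 in TREM2+, of -0.22 (-0.35 to -0.09). Without thinning the lysosome median was -0.07.

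Phagocytic receptors, complement and lipid genes showed no common direction. Of 14 measured phagocytic genes 8 lay below 0, with a median of -0.022. Axl was the lowest, whereas its ligand gene Gas6 had 120 UMIs in P301S/EKO/TREM2- and 73 UMIs in P301S/EKO/TREM2+ (0.87, 0.44 to 1.31), and Mertk, a related receptor for apoptotic cells, was at -0.03 (-0.11 to 0.06). Itgam, which encodes CD11b, had 620 UMIs in TREM2- against 508 UMIs in TREM2+ (0.44, 0.27 to 0.62), while its partner Itgb2 had 199 in TREM2- against 296 in TREM2+ (-0.42, -0.68 to -0.15). C1qa, a subunit of the first complement component, was at -0.29 (-0.34 to -0.24), C1qb at -0.08 (-0.14 to -0.02) and C1qc at -0.12 (-0.19 to -0.06), whereas C4b was at 0.73 (0.28 to 1.19). Among 14 lipid genes the median was -0.035. The cholesterol exporters split, with Abca1 at 725 UMIs in P301S/EKO/TREM2- and 1035 UMIs in P301S/EKO/TREM2+ (-0.36, -0.50 to -0.22) and Abcg1 at 281 in TREM2- against 237 in TREM2+ (0.40, 0.15 to 0.66).

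The share of nuclei with later DAM transcripts was smaller in P301S/EKO/TREM2- at equal depth. At least 3 UMIs over the list were found in 30.4% of nuclei of P301S/EKO/TREM2- (962 of 3169, exact interval 28.8% to 32.0%) and in 40.3% of P301S/EKO/TREM2+ (1421 of 3530, 38.6% to 41.9%), a ratio of 0.754 (0.706 to 0.806). At least 5 UMIs were found in 7.04% of TREM2- nuclei and 11.8% of TREM2+ nuclei. As sequenced, without equal depth, the shares were 40.0% in TREM2- and 67.7% in TREM2+, with medians of 568 and 804 UMIs per nucleus. Among 89 neuron-marker nuclei of the 6 libraries, 12 of them from the P301S/EKO pair, 2.25% reached 3 UMIs. These nuclei should lack the DAM genes and were thinned to the same 500 UMIs. They had at least 10 UMIs over the neuron markers and fewer than 3 over the microglia markers. The cut on neuron markers was set after the marker counts had been seen. Because the rule picks nuclei low in microglia RNA, a low share is partly built in, and it is no independent background. The cut is a point on a range: 712 nuclei of P301S/EKO/TREM2- and 820 of P301S/EKO/TREM2+ had 1 UMI less. Without nuclei that hold 3 or more UMIs of a non-myeloid class the ratio was 0.763.

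Interferon-positive nuclei were also fewer, and at equal depth this depended on the height of the cut. At least 3 UMIs over the interferon list were found in 14.3% of nuclei of P301S/EKO/TREM2- (453 of 3169) and in 22.5% of P301S/EKO/TREM2+ (794 of 3530), a ratio of 0.636 (0.572 to 0.706). At least 8 UMIs, the strongly interferon-positive nuclei, were found in 3.16% of P301S/EKO/TREM2- (100 nuclei) and 3.48% of P301S/EKO/TREM2+ (123 nuclei), a ratio of 0.906 (0.699 to 1.17). At 10 UMIs or more it was 2.24% of P301S/EKO/TREM2- and 2.18% of P301S/EKO/TREM2+, with a ratio of 1.03 (0.747 to 1.41). No difference was detectable at equal depth at these higher cuts. As sequenced, the shares at 3 UMIs were 18.0% in TREM2- and 40.9% in TREM2+, with a ratio of 0.441. The ratio as sequenced was also low at 8 UMIs, at 0.344 (0.291 to 0.405), and at 10 UMIs, at 0.341 (0.280 to 0.415), with TREM2+ the deeper library, so the result at high cuts rests on equal depth. At equal depth 0 of 89 neuron-marker nuclei, chosen as above, reached 3 UMIs. For MHC class I the shares at 3 UMIs were 10.3% in TREM2- and 17.0% in TREM2+ (ratio 0.606, 0.534 to 0.688), and for the NF-kB and cytokine list 3.47% in TREM2- and 5.18% in TREM2+ (0.670, 0.531 to 0.844).

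**Figure D4:**
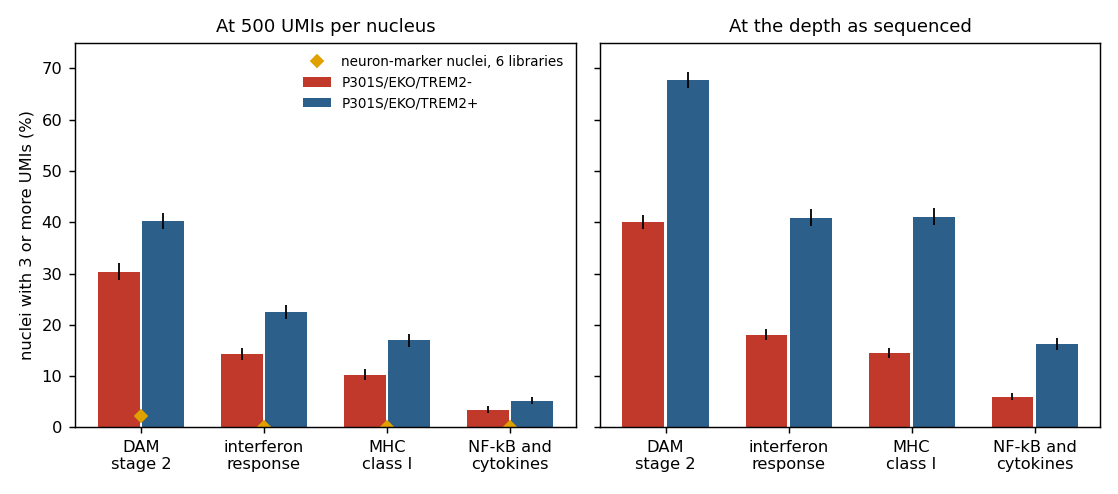
Percent of nuclei with at least 3 UMIs over 4 gene lists in the TREM2- and TREM2+ libraries of the P301S/EKO pair, at 500 UMIs per nucleus (left) and as sequenced (right), with exact binomial 95% intervals as bars and the share in 89 neuron-marker nuclei as diamonds. The gap for DAM stage 2 is 30.4% in TREM2- to 40.3% in TREM2+ at equal depth, and 40.0% in TREM2- to 67.7% in TREM2+ as sequenced.

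The DAM and interferon differences were found in the same and in separate nuclei. At the cut of 3 UMIs, 4.89% of nuclei of P301S/EKO/TREM2- and 9.07% of P301S/EKO/TREM2+ passed both lists. DAM alone accounted for 25.5% in TREM2- and 31.2% in TREM2+, interferon alone for 9.40% in TREM2- and 13.4% in TREM2+, and neither for 60.2% in TREM2- and 46.3% in TREM2+. Among the nuclei that passed the DAM cut, 16.1% of P301S/EKO/TREM2- and 22.5% of P301S/EKO/TREM2+ were interferon-positive. Among the other nuclei it was 13.5% in TREM2- and 22.5% in TREM2+.

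Lpl was lower both in nuclei with 3 or more UMIs of the other DAM genes and in nuclei with fewer. It had 59.4 CPM in P301S/EKO/TREM2-, against 162 CPM in P301S/EKO/TREM2+ in the first class (-1.44, -2.10 to -0.83), and 34.1 CPM in TREM2- against 69.0 CPM in TREM2+ in the second (-1.02, -1.62 to -0.43). Fgr, which is not on the list, had log2 ratios of -2.45 (-3.37 to -1.64) and -1.60 (-2.16 to -1.06) in the same classes. Cst7 and Axl had ratios further below 0 in the second class, with intervals that overlap between the classes. Cst7 was at -0.23 (-1.08 to 0.59) and -1.55 (-2.44 to -0.73), and Axl at -0.87 (-1.74 to -0.07) and -1.85 (-2.57 to -1.19). Whether the ratio differs between the classes was not tested. Trem2 was at -1.07 in both classes, and P2ry12 at 0.30 and 0.27. The summed values of a gene cannot tell fewer positive nuclei from less RNA per nucleus.

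Over all genes with at least 100 equal-depth UMIs, the 12 largest ratios in each direction held few DAM genes and several of other cells. The lowest was Ccdc80, a secreted matrix protein gene, with 13.3 CPM in P301S/EKO/TREM2-, against 73.1 CPM in P301S/EKO/TREM2+ (-2.46, -3.20 to -1.79). Fgr, Lrguk (-1.56), Axl, the antisense RNA Gm15964 (-1.47, which overlaps Gart and Dnajc28 on the opposite strand), Etl4 (-1.36), Lpl, Gm37306 (-1.29), Trim30d (-1.27), Zfp992 (-1.25), Mrc2 (-1.23) and Cd22 (-1.17) followed. Cd22 encodes an inhibitory sialic acid receptor and had 35 UMIs in P301S/EKO/TREM2- and 88 UMIs in P301S/EKO/TREM2+. Ccdc80 was also low in the TREM2- library of the P301S/E4 pair (-2.33) and of the E4 pair (-2.02).

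The highest was Ccr6, a chemokine receptor gene (chr17:8236043-8257141), with 73.8 CPM in P301S/EKO/TREM2- (117 UMIs in 113 nuclei), against 1.70 CPM in P301S/EKO/TREM2+ (3 UMIs), a log2 ratio of 5.44 (3.86 to 7.74). Gm12166 (2.06), Meg3 (1.89), the noncoding RNA E230001N04Rik (1.55), Hbegf (1.46), Aldoc (1.34), Crybb1 (1.21), Gfap (1.17), Dok3 (1.09), Map1a (1.09), Gpr160 (1.06) and Tuba1a (1.06) followed. Meg3, an RNA abundant in neurons, had 123 UMIs in only 21 nuclei of P301S/EKO/TREM2- and 37 UMIs in 10 nuclei of P301S/EKO/TREM2+, with up to 18 UMIs in 1 nucleus of TREM2- and 20 in 1 nucleus of TREM2+. Without nuclei that hold 3 or more UMIs of a non-myeloid class its log2 ratio was 0.39 over 13 UMIs, with an interval of -1.41 to 2.24. Gfap, the astrocyte filament gene, was at 1.09 there. Gfap and Aldoc belong to the astrocyte markers and Meg3 to the neuron markers, both higher in P301S/EKO/TREM2- as given above.

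The other backgrounds were set beside the P301S/EKO pair to ask where the Trem2 difference depends on the background. The later DAM list had a median of -0.39 in P301S/EKO, -0.26 in P301S/E4 and 0.24 in E4, where 15 of the 21 members had values. The interferon list had -0.24 in P301S/EKO, 0.57 in P301S/E4 and -0.05 in E4, there over 20 of the 41 members. MHC class I had -0.40, 0.11 and 0.06, the last over 13 of 16 members. All genes measured in P301S/EKO had medians of -0.037, 0.057 and -0.060. In P301S/E4, 39 of 41 interferon members and 10 of 16 MHC class I members lay above 0, where 57.0% of all genes did. Mitochondrial transcripts, which are made outside the nucleus, had medians of -0.40, 0.50 and 0.20 in the same order. Spp1 was lower in the TREM2- library of every pair, at -1.84, -2.07 and -3.45, as were Lpl at -1.34, -1.72 and -0.99, Itgax at -1.16, -2.13 and -1.60, and Fgr at -1.94, -1.47 and -0.76. Axl was at -1.50, -0.19 and 1.30, and Cst7 at -0.99, -0.62 and 0.94. At equal depth, 3 or more later DAM UMIs were found in 56.7% of nuclei of P301S/E4/TREM2-, against 64.4% of P301S/E4/TREM2+, and in 926 of 4217 nuclei of E4/TREM2- and 619 of 3468 nuclei of E4/TREM2+. For the interferon list the shares were 33.4% in P301S/E4/TREM2- against 19.7% in P301S/E4/TREM2+, and 3.34% in E4/TREM2- against 4.12% in E4/TREM2+.

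**Figure D5:**
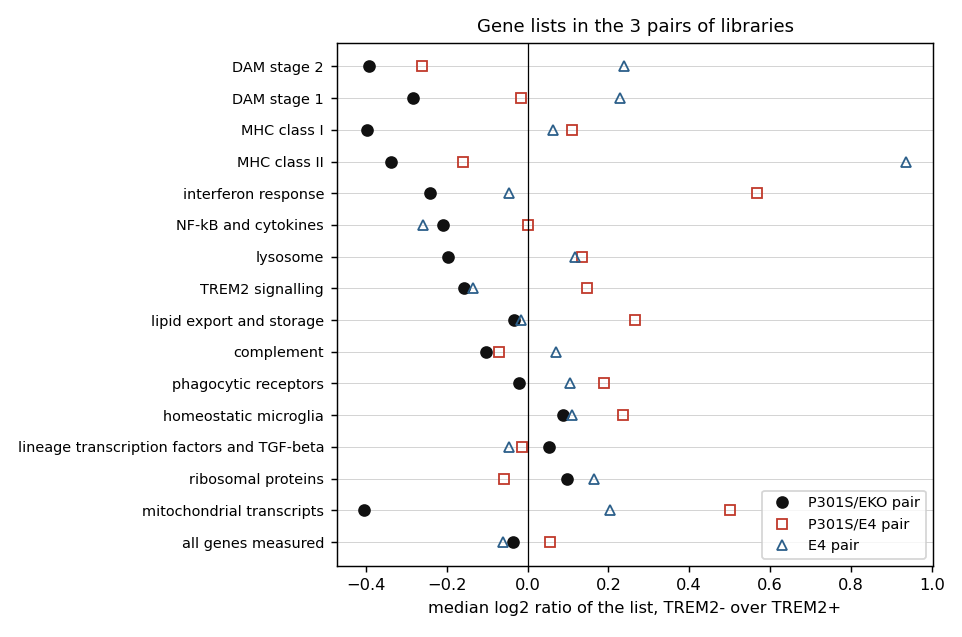
Median log2 ratio of each gene list, TREM2- over TREM2+ at 500 UMIs per nucleus, in the P301S/EKO, P301S/E4 and E4 pairs, each over the list members measured in the P301S/EKO pair that can be valued there. The P301S/EKO point is the lowest of the 3 for DAM stage 2 (-0.39), MHC class I (-0.40), interferon response (-0.24) and mitochondrial transcripts (-0.40). It is also the lowest for most other lists drawn, homeostatic genes (0.09) among them. The exceptions are NF-kB and cytokines, lineage factors and TGF-beta, ribosomal proteins and all genes measured.

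A test of the difference was possible over the 6 libraries together. It asked whether the Trem2 log2 change in P301S/EKO differed from that shared by P301S/E4 and E4, with edgeR's quasi-likelihood F test and Benjamini-Hochberg adjustment over 10832 genes. With 1 residual degree of freedom it takes the spread from the disagreement between those 2 pairs, pooled over genes. The edgeR standard errors (SE) and p-values below thus do not measure a gene's own spread between libraries. The test gives a gene's own disagreement between those pairs no weight. It called 12 genes (0.111%) at an adjusted p of 0.05 or less, 5 with a higher and 7 with a lower change in P301S/EKO, and 402 genes had an unadjusted p under 0.05. DESeq2 called 1 gene, with 22 at an unadjusted p under 0.05. The gene called by both, and also without thinning and without an expression filter, was Hbegf, which encodes a growth factor of the EGF family. Hbegf had 65.6 CPM in P301S/EKO/TREM2-, against 23.8 CPM in P301S/EKO/TREM2+. In the P301S/E4 pair its level was 12.1 CPM in TREM2- and 57.5 CPM in TREM2+ (log2 ratio -2.24). In the E4 pair its level was 4.74 CPM in TREM2- and 62.3 CPM in TREM2+ (log2 ratio -3.72). It was thus higher without Trem2 in the P301S/EKO pair and lower in both APOE4 pairs, a log2 difference of 4.25 ± 0.47 (SE, 6 libraries, edgeR adjusted p = 4.06e-16, DESeq2 adjusted p = 0.00494).

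Of the other 11 genes called by edgeR, 3 are interferon-inducible and had a lower change in P301S/EKO: Rnf213 with a log2 difference of -1.54 ± 0.33 (adjusted p = 0.00774), Ddx60 with -1.52 ± 0.37 (0.0433) and Trim30d with -1.39 ± 0.33 (0.0307). Ddx60, which encodes an RNA helicase, had 49.2 CPM in P301S/EKO/TREM2-, against 78.8 CPM in P301S/EKO/TREM2+. In the P301S/E4 pair its level was 131 CPM in TREM2- and 55.9 CPM in TREM2+. Clu and Aldoc, both abundant in astrocytes, had a higher change in P301S/EKO, with log2 differences of 1.53 ± 0.38 (edgeR adjusted p = 0.0449) and 1.79 ± 0.43 (0.0367). In P301S/EKO, P301S/E4 and E4 the log2 ratios were 0.96, -1.06 and 0.19 for Clu and 1.34, -1.06 and 0.28 for Aldoc. The summed astrocyte markers, Aldoc among them, were at 0.52, -0.40 and 0.10 in the same order. The part of astrocyte RNA in these calls was not tested. Without an expression filter the adjusted p was 0.122 for Ddx60, 0.108 for Trim30d, 0.115 for Clu, 0.0697 for Aldoc and 0.061 for Gpnmb. Without thinning, Hbegf and Rnf121 were the only genes called. Among the later DAM genes, Gpnmb was called, with a log2 difference of -4.19 ± 0.97 (edgeR adjusted p = 0.023), on 1 UMI in TREM2- and 17 UMIs in TREM2+ of the P301S/EKO pair. The other members named above were not: the log2 difference was 0.35 ± 0.55 for Spp1, 0.34 ± 0.37 for Lpl, 0.98 ± 0.51 for Itgax and -1.35 ± 0.41 for Axl, each with an edgeR adjusted p of 0.354 or more. A missing call does not show that the pairs were alike.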

How the data were processed

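Nuclei were sorted and sequenced with droplet chemistry, and 3 mice were pooled per library. The authors' deposited matrices held raw UMI counts per gene and nucleus from Cell Ranger mapped to mm10, per the submitters' processing notes, and the file headers give software version 3.0.1. Filtered barcodes, as deposited, were used. Whether intronic reads were counted is not given in the sources used here. Doublets had been gated out by light scatter in the sort, per the labels' protocols, and no doublet caller was run.

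From these counts, nuclei were filtered as stated above and thinned to 500 UMIs with seed 1 (numpy 2.4.6), UMIs were summed per library, and log2 ratios were given exact conditional binomial 95% intervals (scipy 1.17.1). A gene was measured with at least 50 thinned UMIs over the pair, so that one high library was enough to pass. Locations are from GENCODE vM21 (GRCm38), which matched 30934 of 31053 features. Differences between backgrounds were tested with edgeR 4.0.16 (R 4.3.3, limma 3.58.1), and DESeq2 1.42.0 was an alternative. Both were fitted to sums of thinned counts with background, TREM2 and TREM2 within P301S/EKO as terms. The procedures were tested on simulated data. For edgeR the simulated counts had the same spread for every gene. They lack the disagreement between the APOE4 pairs seen for some called genes, so they do not check those calls.

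The libraries, the 20 gene lists and the markers were chosen with earlier results of these data known. Named genes were Trem2, Tyrobp and Apoe, a set of well-known DAM, homeostatic, interferon and MHC genes, up to 3 members a side of each list, the 12 highest and 12 lowest genes with at least 100 UMIs and an interval without 0, and genes within 1 Mb of Trem2. Other genes named were chosen after their values were seen, and some genes within these rules are not reported here. Nuclei of a pool are not replicates, and no p-value was made from them.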

Additional observations from a re-analysis of the deposited data

Results flagged for a closer look

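For 12 genes the change with Trem2 deletion in P301S/EKO differed from the change fitted as shared by P301S/E4 and E4. The test was over 6 libraries (edgeR quasi-likelihood F test, adjusted p of 0.05 or less). A call does not mean that P301S/EKO differed from each of these pairs. The log2 difference was positive for Ccr6 (4.76), Hbegf (4.25), Aldoc (1.79), Clu (1.53) and Ccnd3 (1.33). It was negative for Gpnmb (-4.19), Gnb4 (-3.56), Rnf121 (-3.56), mt-Atp8 (-2.21), Rnf213 (-1.54), Ddx60 (-1.52) and Trim30d (-1.39).

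For several of these genes the APOE4 pairs did not share a direction or size, to which this test gives no weight because its spread is pooled over genes. Ccr6 had 117 UMIs in P301S/EKO/TREM2- and 3 UMIs in P301S/EKO/TREM2+, 199 in TREM2- and 2 in TREM2+ of the P301S/E4 pair, and 7 in TREM2- and 86 in TREM2+ of the E4 pair. Gnb4, a G protein subunit gene, had 5 UMIs in TREM2- and 79 in TREM2+ of the P301S/EKO pair, 190 in TREM2- and 56 in TREM2+ of the P301S/E4 pair, and 6 in TREM2- and 73 in TREM2+ of the E4 pair. For both genes P301S/EKO was thus close to 1 of the APOE4 pairs. The log2 ratio of Ccr6 was 5.44 in P301S/EKO and 6.48 in P301S/E4, and that of Gnb4 was -3.83 in P301S/EKO and -3.89 in E4. Rnf121, a ubiquitin ligase gene, had 200 CPM in P301S/EKO/TREM2-, against 305 CPM in P301S/EKO/TREM2+. It had 384 CPM in TREM2- and 15.9 CPM in TREM2+ of the P301S/E4 pair, and 284 CPM in TREM2- and 90.0 CPM in TREM2+ of the E4 pair. Ccnd3, which lies within 1 Mb of Trem2, had log2 ratios of 0.41 in the P301S/EKO pair, -1.53 in the P301S/E4 pair and -0.19 in the E4 pair.

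The median log2 ratio was -0.24 for the interferon list and -0.40 for MHC class I in P301S/EKO. It had the opposite sign in P301S/E4, at 0.57 and 0.11. The median over all genes was -0.037 in P301S/EKO and 0.057 in P301S/E4, so MHC class I lay near it in P301S/E4. These differences were not tested. In P301S/E4, 39 of 41 interferon members and 10 of 16 MHC class I members were above 0, against 57.0% of all genes. In P301S/EKO the counts were 8 of 41 and 3 of 16, against 44.8% of all genes. Mitochondrial transcripts also changed sign between these pairs, and their part in these differences was not tested.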

How the results depend on the processing

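No paired analysis was possible because each genotype has 1 library. Leaving out a library could not be done for the same reason: the test over 6 libraries would have no residual degree of freedom. In place of replicates, the alternatives concern depth, random draw, filters and scaling. Of the values that answer a comparison, 86 under an alternative kept their direction and size, 21 moved and 1 reversed. For single genes 442 kept and 34 moved, and none reversed after a call.

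Without thinning, over all nuclei, the median was -0.21 for later DAM genes, 0.16 for homeostatic genes and -0.33 for interferon genes, and the share ratios were 0.591 for DAM and 0.441 for interferon. Without thinning in nuclei of at least 500 UMIs, 68 genes were 2-fold higher and the share ratios were 0.702 and 0.560. Thinned to 1000 UMIs, which leaves 316 nuclei of P301S/EKO/TREM2- and 980 of P301S/EKO/TREM2+, 120 genes were 2-fold lower, the homeostatic median reversed to -0.038, the interferon median was -0.47, and the share ratios were 0.855 and 0.758. With at least 500 genes per nucleus, 26 genes were 2-fold higher and the DAM share ratio was 0.676. With equal weight per nucleus and no random draw, an alternative chosen after seeing the data, 48 genes were 2-fold lower. A gene minimum of 20 UMIs gave 193 higher and 240 lower genes, and one of 200 UMIs gave 4 and 10. The test of the difference called 1 gene with DESeq2 and 2 without thinning. TMM scaling shifted every log2 ratio by 0.036. The cause of these moves was not tested. Depth limits single genes: below about 100 UMIs over the pair, intervals span 1 log2 unit or more.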

Other observations

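Ribosomal protein genes had a median log2 ratio of 0.10 over 75 measured members, 47 of them above 0. Lineage transcription factors and TGF-beta genes had a median of 0.05. Smad7, an inhibitor of TGF-beta signalling, had 988 UMIs in TREM2- against 831 UMIs in TREM2+ (0.41, 0.27 to 0.54). Irf8, which sets myeloid identity, had 1004 in TREM2- against 1388 in TREM2+ (-0.31, -0.43 to -0.19).

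Jun was the highest of 7 measured immediate early genes, with 158 UMIs in P301S/EKO/TREM2- and 95 UMIs in P301S/EKO/TREM2+ (0.89, 0.51 to 1.27), beside a list median of 0.16. Among 12 glycolysis genes with a median of 0.02, Gapdh had 269 in TREM2- against 196 in TREM2+ (0.61, 0.34 to 0.89) and Pkm 120 in TREM2- against 93 in TREM2+ (0.52, 0.12 to 0.93). Cholesterol synthesis genes, 5 measured, had a median of 0.07 and no interval without 0. Nuclei with 3 or more cell cycle UMIs were 0.284% of P301S/EKO/TREM2- (9 nuclei) and 0.283% of P301S/EKO/TREM2+ (10 nuclei) at equal depth. As sequenced they were 0.401% in TREM2- and 1.13% in TREM2+, a ratio of 0.354 (0.207 to 0.605). All 4 measured cell cycle genes lay below 0, with a median of -0.16, and the replication gene Mcm3, with 12 UMIs in TREM2- against 38 UMIs in TREM2+, was the lowest at -1.51 (-2.58 to -0.54). The Y-linked genes were present in both pools, with Xist at 0 UMIs in TREM2- and 1 UMI in TREM2+.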
